A study of Mus musculus with 6 samples.

Results

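DNA replication and S-phase genes were examined in the uterus of mice with a floxed or a deleted Nat10, the gene of an acetyltransferase that modifies cytidines in RNA. The set was chosen by gene symbol and holds 47 genes, all of which were found among the 20637 genes listed for each library. Whole uteri were taken from female mice on postnatal day 21, and poly(A) RNA was sequenced from 3 samples labelled Nat10 f/f (here called control) and 3 labelled Nat10 d/d (here called deleted). Strain, litter, the Cre line that makes the deletion, the exons removed and the cells in which it acts are not given in the sources used here. The labels call the samples replicates and do not say whether each came from a separate animal, so p-values measure only the spread between these samples.

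Replication begins when the origin recognition complex, Cdc6 and Cdt1 load the ring of Mcm2 to Mcm7 onto DNA in G1. Cdc45 and the GINS complex then turn that ring into an active helicase in S phase, and polymerases alpha, delta and epsilon copy the strands. Most of these genes are transcribed in late G1 and S phase under E2F factors, and their mRNA levels are widely read as a measure of how many cells are cycling. In the uterus before puberty, epithelium and stroma grow without ovarian cycles.

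The values are FPKM-type, that is, read abundance per transcript length and library depth, and differences are on the scale of log2(value + 1). A gene was tested if its value was at least 1 in at least 3 libraries, which kept 12640 genes. Low values put the deepest library, deleted replicate 2, at 1.26 times the shallowest, deleted replicate 1; absolute depth is unknown, so no counting intervals are given. Deleted replicate 2 also had the largest sum of values (549263, against 500764 to 538862 in the others). Nat10 was lower in each deleted library (5.57, 5.23 and 5.53) than in any control (13.2, 16.4 and 9.95), and the deleted mean was 41.4% of the control mean (log2 change -1.11, SE 0.17, limma adjusted p 0.669). An exact two-sided permutation test gave p = 0.1, the smallest that 3 against 3 allows. Marker genes were checked against the tissue label: 6 smooth muscle markers together reached 3677 to 4223 in controls and 3484 to 4355 after deletion, while 4 of 6 ovary markers (Fshr, Zp3, Cyp19a1 and Oosp1) were listed at 0 in every library and the other two, Gdf9 and Amh, were not.

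No replication gene passed the test between the genotypes, and the 3 deleted uteri lay far apart. All 47 genes had their highest value in deleted replicate 2, where they stood at 1.42 to 5.3 times the control mean, with a median of 2.55 times. In deleted replicate 3 the median gene was at 61.5% of the control mean, and in deleted replicate 1 at 74.6%. Replicate 1 was below the control mean for 41 of the 47 genes and replicate 3 for 45. For 31 genes, deleted replicates 1 and 3 were both below every control while replicate 2 was above every control. In whole tissue, fewer cycling cells and less mRNA per cell cannot be told apart.

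**Figure D1:**
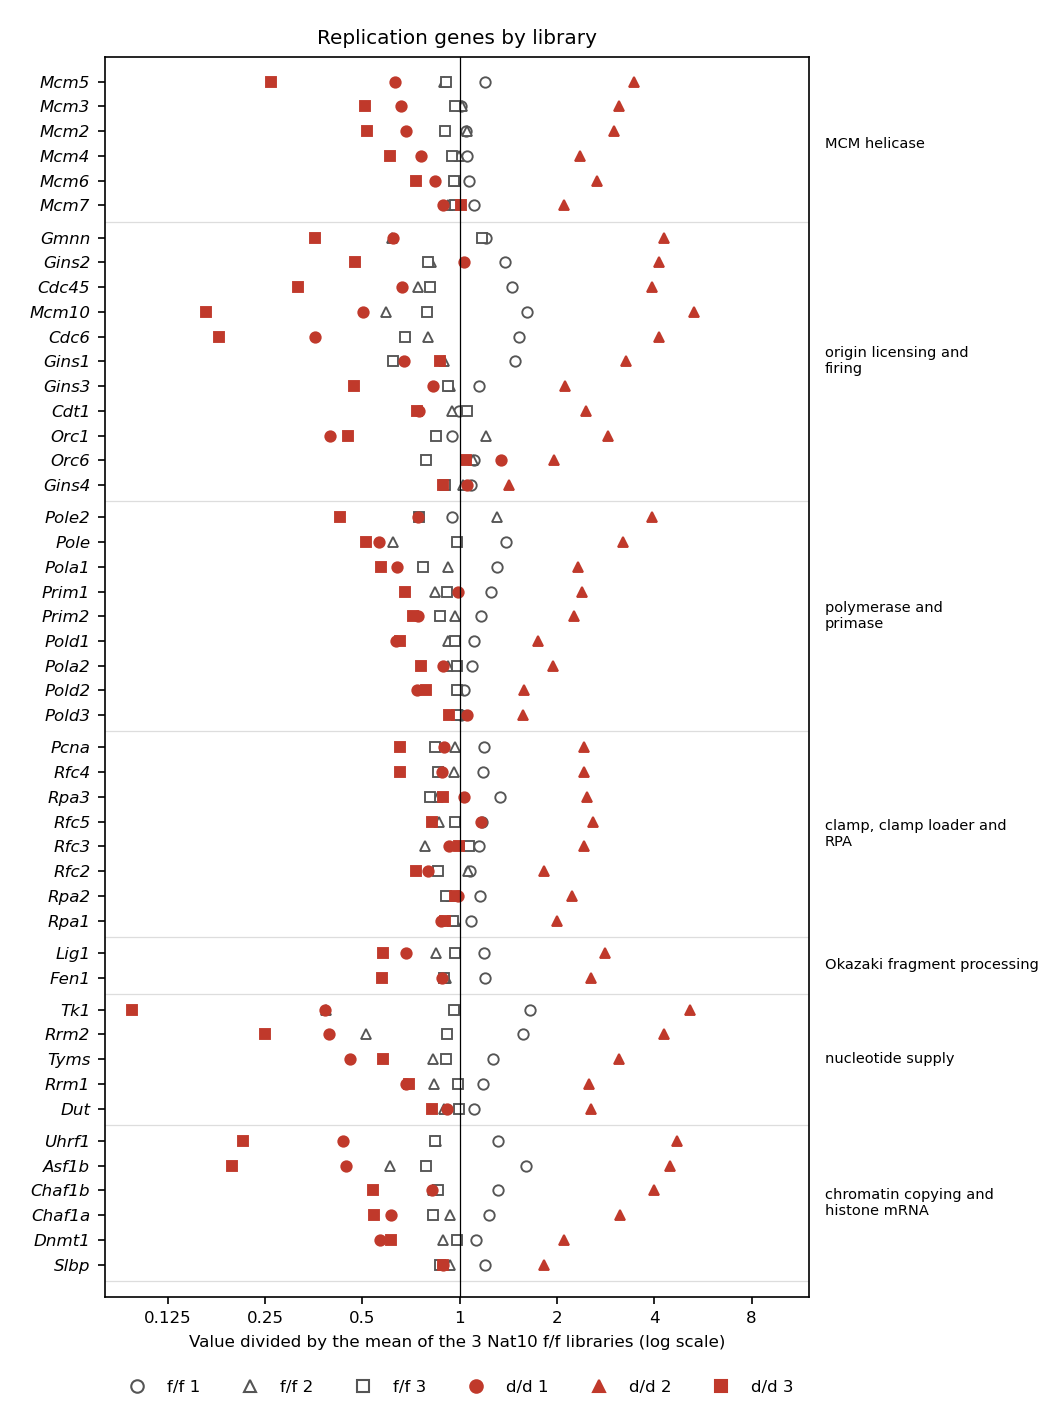
Values of the 47 replication genes in each library, divided by the mean of the 3 Nat10 f/f libraries (log scale), grouped by role and sorted within a role by range. Red triangles, Nat10 d/d replicate 2, lie at 1.42 to 5.3 on this axis and are the rightmost point for every gene. Red squares and circles, d/d replicates 3 and 1, lie mostly left of the open control symbols.

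Of the 47 genes, 45 passed the filter on low values; Orc1 and Mcm10 did not, each having a value of at least 1 in fewer than 3 libraries. No member was called by limma at an adjusted p of 0.05, and adjusted values ran from 0.922 to 1.00. The share called among all genes tested was also 0% at that threshold. At an unadjusted p under 0.05 the count was 0 members, against 4.98% of all genes tested. The groups did not overlap for 0 members, against 10.7% of all genes tested. The median log2 change over the 45 tested members was 0.12, and over all genes tested it was 0.03. On average 34 members were higher and 11 lower in deleted uteri, with changes from -0.26 to 0.48 and standard errors from 0.18 to 1.09. With limma's array quality weights, added after seeing the data, 0 members and 2.5% of all genes were called, and 39 members were lower, with a median of -0.29. That fit weighted deleted replicates 1, 2 and 3 by 3.74, 0.22 and 0.45, so replicate 1 counted most and replicate 2 least.

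The pattern across the 3 deleted libraries was described against the same count over all genes. Deleted replicate 2 lay above every control for 45 of 45 tested members, and this was so for 38.4% of all genes tested. Deleted replicate 1 lay below every control for 30 tested members, against 31.9% of all genes, and deleted replicate 3 for 38, against 25.5%. The full pattern of low, high and low in replicates 1, 2 and 3 was found in 29 tested members (64.4%) and in 6.77% of all genes. The remaining 16 tested members were all above every control in replicate 2 but lay inside or above the control range in replicate 1, in replicate 3 or in both.

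Spread within the groups differed accordingly. The standard deviation among deleted libraries exceeded that among controls for 45 of 45 tested members, as it did for 73.9% of all genes. The ratio of the 2 standard deviations had a median of 4.32 over the members and 1.73 over all genes. Without deleted replicate 2 the members' median ratio was 0.91 and that of all genes 1.05.

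**Figure D2:**
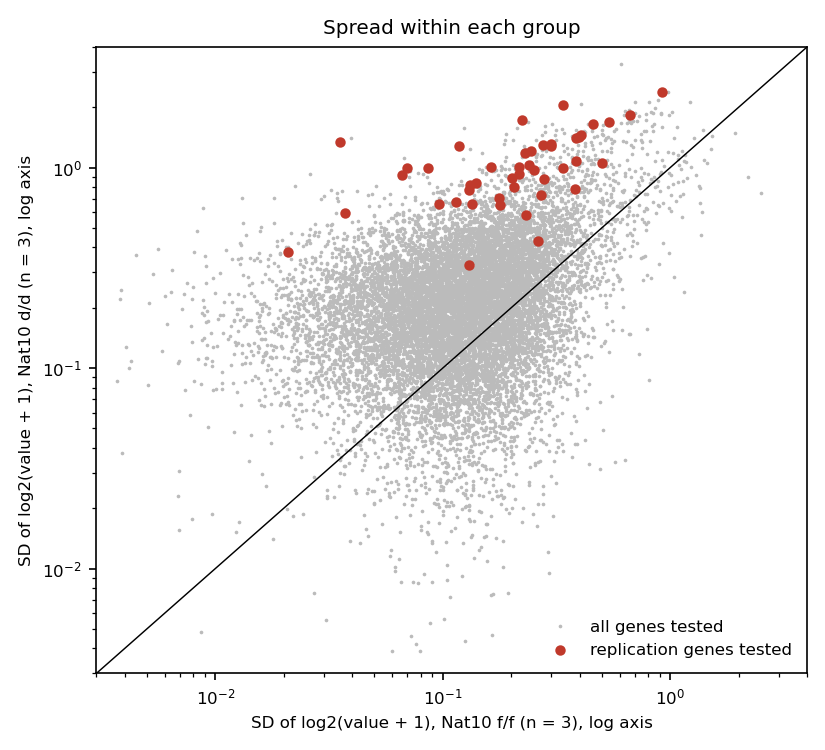
Standard deviation of log2(value + 1) among the 3 Nat10 f/f libraries (horizontal, log axis) and among the 3 Nat10 d/d libraries (vertical, log axis) for all genes tested (grey) and the 45 tested replication genes (red). All red points lie above the line of equal spread; 10 genes with values beyond the axes are not drawn.

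The comparison was repeated leaving out each library in turn. All 45 tested members were highest in deleted replicate 2, so leaving it out had to lower the change of each. The counts without it describe that fit only. Without it, 44 of 45 tested members were lower in deleted uteri and Orc6 was higher, with a median log2 change of -0.42, against 0.02 over all genes. The groups then did not overlap, with deleted lower, for 29 members, against 14.4% of all genes. At an unadjusted p under 0.05, 24 members were lower and 0 higher, against 6.57% of all genes that were lower. After adjustment over all genes, limma called 0 members, and the smallest adjusted p was 0.127, while 12 genes (0.0949%) were called in all. Leaving out deleted replicate 1 or replicate 3 instead made all 45 members higher, with median changes of 0.35 and 0.51. The direction of the average thus differed with the deleted library left out.

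**Figure D3:**
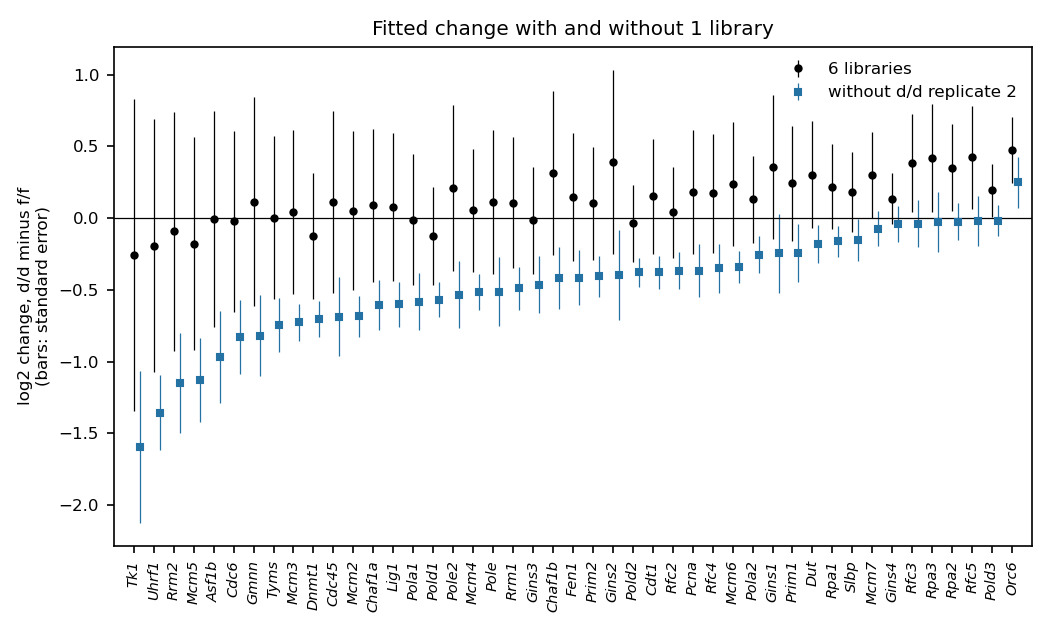
Fitted log2 change (Nat10 d/d minus f/f) of the 45 tested replication genes with all 6 libraries (black circles) and without d/d replicate 2 (blue squares); bars are standard errors. Black points lie between -0.26 and 0.48, and blue points between -1.60 and 0.25.

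The ring helicase, which unwinds the parental strands, showed the pattern in 5 of its 6 subunits. Mcm5 was 15.7, 11.7 and 11.8 in controls and 8.25, 45.04 and 3.40 in deleted replicates 1, 2 and 3. It had the widest range of the ring, with replicate 2 above all controls and both others below them (log2 change -0.18, SE 0.74, limma adjusted p 0.989). Mcm2 was 15.4, 15.5 and 13.2 in controls and 10.02, 44.0 and 7.61 in deleted uteri. Mcm3 differed by 1.05 times among controls, at 17.1, 17.2 and 16.4, and was 11.1, 52.5 and 8.64 in deleted uteri. Among the tested genes of the set, Mcm3 had the largest ratio of deleted to control standard deviation. All ring subunits but Mcm7 thus lay below every control in replicates 1 and 3; Mcm4 was 16.4, 15.6 and 14.8 in controls and 11.8, 36.8 and 9.49 in deleted uteri. Mcm6, the subunit with the highest value in all libraries except deleted replicate 3, was 35.2, 31.9 and 31.5 in controls and 27.5, 87.3 and 24.2 in deleted uteri.

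Mcm7 departed from its partners. Mcm7 was 31.4, 26.1 and 27.3 in controls and 25.04, 59.5 and 28.4 in deleted uteri, so that replicate 3 lay inside the control range (log2 change 0.30, SE 0.30, limma adjusted p 0.947). In deleted replicate 3 Mcm7 had the highest value of the ring and was 8.37 times as high as Mcm5, which had the lowest. In the other 5 libraries the highest subunit was 2.3 to 3.34 times the lowest. Exons of Mcm7 overlap those of Cops6 and Ap4m1 on the opposite strand in the GENCODE M21 annotation. Such overlaps also occur in genes that did show the pattern, such as Cdc45, Lig1 and Tk1. Whether the authors' quantification used strand is not given in the sources used here. Summed over Mcm2 to Mcm7, the value was 115 to 131 in controls and 93.8, 325 and 81.7 in deleted replicates 1, 2 and 3.

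Licensing genes prepare origins in G1. Cdc6, the loader that recruits the ring and is destroyed outside its window of action, was 2.41, 1.26 and 1.07 in controls and 0.56, 6.54 and 0.28 in deleted uteri, and the highest library was 23.0 times the lowest. Cdt1, its partner in loading, was steadier at 8.92, 8.503 and 9.42 in controls and 6.70, 22.0 and 6.60 in deleted uteri. Gmnn encodes geminin, which binds Cdt1 and prevents a second round of licensing; it was 7.42, 3.78 and 7.19 in controls and 3.81, 26.3 and 2.197 in deleted uteri (log2 change 0.12, SE 0.73, limma adjusted p 0.992). Replicate 1 was just inside the control range of Gmnn. The value of Gmnn divided by that of Cdt1 was 0.45 to 0.83 in controls and 0.57, 1.19 and 0.33 in deleted replicates 1, 2 and 3. Only replicate 2 had more Gmnn than Cdt1.

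Orc1 and Orc6, subunits of the origin recognition complex, are both listed in the set and differed in pattern. Orc1 was low in all libraries, at 0.72, 0.92 and 0.65 in controls and 0.30, 2.21 and 0.34 in deleted uteri. Orc6 was 15.2, 15.1 and 10.8 in controls and 18.4, 26.7 and 14.4 in deleted uteri, where replicates 1 and 2 were above every control and replicate 3 inside their range. Orc6 had the largest log2 change of the set (0.48, SE 0.23) and the smallest p, at an unadjusted 0.076 and a limma adjusted 0.922. Its exons overlap those of Vps35 on the opposite strand.

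Firing factors convert loaded rings into moving forks. Cdc45 was 4.28, 2.19 and 2.39 in controls and 1.97, 11.6 and 0.94 in deleted uteri, and Mcm10, which joins the helicase at firing, was 1.89, 0.69 and 0.93 against 0.59, 6.20 and 0.19. Of the set, Mcm10 stood highest relative to the control mean in replicate 2, at 5.3 times that mean. The 4 GINS subunits act as a complex, yet their ranges differed. Gins2 was 11.8, 6.95 and 6.80 in controls and 8.80, 35.3 and 4.04 in deleted uteri. Gins4 had the narrowest range of the set, at 24.4, 23.1 and 20.3 in controls and 23.8, 32.1 and 20.1 in deleted uteri (log2 change 0.14, SE 0.18, limma adjusted p 0.954). Gins4 had the highest value of the complex in 5 libraries, and in deleted replicate 2 Gins2 had. Gins3 was 3.47, 2.84 and 2.79 in controls and 2.50, 6.45 and 1.43 in deleted uteri. Gins1 was the only subunit of the complex to lie inside the control range in both deleted replicates 1 and 3, at 2.78 and 3.60 beside controls of 6.16, 3.71 and 2.58.

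Promoter windows of the set were searched for short sequence strings. RefSeq windows on GRCm38.p6, from 250 bases before to 50 after the start site, were matched by symbol for 39 of the 47 genes. The search used the E2F-type strings TTTCCCGC, TTTGGCGC, TTTCGCGC and TTTGCCGC on both strands. At least 1 of them was found for 16 of the 39 genes (41%), and for 4.57% of the 10039 tested genes with a window. Among other replication genes outside the set it was found for 9 of 36 (25%). Members' windows held a median of 23 CG dinucleotides, against 20 for tested genes, and 61.3% G and C against 60.7%. TTTGAA, the CHR string of many mitotic promoters, was found for 7 of the 39 (17.9%) and for 14.2% of tested genes. A match describes letters and does not show binding.

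The 4 windows below belong to the genes with an E2F-type string and the widest range of log2(value + 1) over the libraries. Capitals mark the E2F-type strings, and positions count from 1 at the start site, with negative numbers before it.
Uhrf1, chr17:56304063-56304362, plus strand: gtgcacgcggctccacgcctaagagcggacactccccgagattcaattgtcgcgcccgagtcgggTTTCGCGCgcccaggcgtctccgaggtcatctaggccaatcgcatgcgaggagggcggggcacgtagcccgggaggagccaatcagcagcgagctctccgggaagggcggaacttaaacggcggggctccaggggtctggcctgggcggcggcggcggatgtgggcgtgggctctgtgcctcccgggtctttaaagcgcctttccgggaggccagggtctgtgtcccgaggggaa
Mcm5, chr8:75109259-75109558, plus strand: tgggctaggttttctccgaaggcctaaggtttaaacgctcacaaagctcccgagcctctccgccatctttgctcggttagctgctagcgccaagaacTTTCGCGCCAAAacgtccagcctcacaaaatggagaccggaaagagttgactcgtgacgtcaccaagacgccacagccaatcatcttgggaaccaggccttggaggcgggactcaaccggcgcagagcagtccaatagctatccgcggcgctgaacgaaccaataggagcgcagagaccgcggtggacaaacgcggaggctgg
Cdc6, chr11:98907901-98908200, plus strand: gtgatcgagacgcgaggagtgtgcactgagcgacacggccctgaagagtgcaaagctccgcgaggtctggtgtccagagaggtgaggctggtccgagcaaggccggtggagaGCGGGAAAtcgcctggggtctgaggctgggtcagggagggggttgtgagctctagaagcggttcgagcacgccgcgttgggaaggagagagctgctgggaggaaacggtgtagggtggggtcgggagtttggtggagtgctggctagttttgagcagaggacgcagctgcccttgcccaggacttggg
Pole2, chr12:69228141-69228440, minus strand: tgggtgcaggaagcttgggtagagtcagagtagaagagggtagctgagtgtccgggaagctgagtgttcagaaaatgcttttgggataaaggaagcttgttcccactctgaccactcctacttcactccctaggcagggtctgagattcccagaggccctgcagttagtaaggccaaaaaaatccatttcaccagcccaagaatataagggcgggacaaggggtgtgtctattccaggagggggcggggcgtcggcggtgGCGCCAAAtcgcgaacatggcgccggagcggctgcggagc
Uhrf1 had 2 windows, and only the 1 shown held an E2F-type string, TTTCGCGC, which begins at -185. In Mcm5, TTTCGCGC begins at -153 and overlaps TTTGGCGC, read on the other strand, from -149. Cdc6 has TTTCCCGC on the other strand at -138, and Pole2 has TTTGGCGC on the other strand at 11, after the start site. Tk1, which had the widest range of all, had a window without any of these strings.

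Polymerases and primase showed the pattern in 7 of 9 genes. Primase and polymerase alpha begin each new strand: Prim1 was 16.1, 10.9 and 11.8 in controls and 12.8, 31.0 and 8.78 in deleted uteri, and Pola1 was 8.97, 6.32 and 5.28 against 4.38, 15.9 and 3.93. Their partners Prim2 and Pola2 were below every control in replicates 1 and 3 and stood at 2.27 and 1.94 times the control mean in replicate 2. Polymerase epsilon extends the leading strand. Its accessory gene Pole2 was 2.79, 3.84 and 2.21 in controls and 2.198, 11.6 and 1.26 in deleted uteri (log2 change 0.21, SE 0.58, limma adjusted p 0.986), and its catalytic gene Pole was 3.02, 1.35 and 2.13 against 1.22, 6.93 and 1.12.

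Polymerase delta extends the lagging strand, and its 3 genes in the set stood less far above controls in replicate 2 than Pole and Pole2. Pold1, the catalytic subunit, was 13.4, 11.1 and 11.7 in controls and 7.67, 21.1 and 7.89 in deleted uteri. Pold2 was 32.7, 31.4 and 31.1 in controls and 23.4, 50.2 and 24.99 in deleted uteri. Pold3 was almost constant among controls, at 17.2, 17.2 and 16.7, and was 17.9, 26.7 and 15.7 in deleted uteri, so that replicate 1 lay just above them (log2 change 0.19, SE 0.18, limma adjusted p 0.945). In replicate 2 these 3 genes stood at 1.75, 1.58 and 1.57 times the control mean, against 3.2 times for Pole and 3.95 times for Pole2.

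The sliding clamp Pcna, which tethers polymerases to DNA, had the highest value of the set in every library. It was 105, 85.3 and 74.3 in controls and 79.2, 213 and 57.8 in deleted uteri, with replicate 1 inside the control range (log2 change 0.18, SE 0.43, limma adjusted p 0.986). Rfc2 to Rfc5 encode subunits of the clamp loader. Rfc2 was 32.6, 32.3 and 26.0 in controls and 24.2, 55.2 and 22.2 in deleted uteri, while Rfc3, at 10.7 and 11.4 in replicates 1 and 3, stayed inside its control range of 8.99 to 13.2. Rfc5 was 12.7, 9.32 and 10.5 in controls and 12.6, 28.1 and 8.88 in deleted uteri. Rfc4 was 13.3, 10.9 and 9.65 in controls and 9.92, 27.4 and 7.36 in deleted uteri, with replicate 1 inside the control range.

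RPA coats single-stranded DNA in repair as well as in replication. Rpa1 was 28.2, 25.2 and 24.9 in controls and 22.9, 52.4 and 23.6 in deleted uteri (log2 change 0.22, SE 0.30, limma adjusted p 0.956). Rpa2 was 14.95, 12.1 and 11.7 in controls and 12.8, 28.8 and 12.5 in deleted uteri, with both low libraries inside the control range (log2 change 0.35, SE 0.30, limma adjusted p 0.939). Rpa3 was likewise inside it in replicates 1 and 3, at 29.1 and 24.9, and was 69.5 in replicate 2. Of the 8 genes for clamp, loader and RPA, 2 showed the low, high and low pattern, and all 8 had a log2 change above 0 in the fit of 6 libraries. Rfc2 was below 0 with quantile or upper-quartile scaling and without control replicate 3. With array quality weights Pcna, Rfc2, Rfc3, Rfc4 and Rpa1 were below 0, and without deleted replicate 2 all 8 were.

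Okazaki fragments are trimmed by the flap nuclease Fen1 and sealed by the ligase Lig1, and both genes showed the pattern. Fen1 was 10.6, 8.01 and 7.88 in controls and 7.79, 22.5 and 5.09 in deleted uteri (log2 change 0.15, SE 0.45, limma adjusted p 0.989). Lig1 was 16.5, 11.8 and 13.4 in controls and 9.53, 39.1 and 8.04 in deleted uteri. In Fen1, replicate 1 was just below the lowest control.

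**Figure D4:**
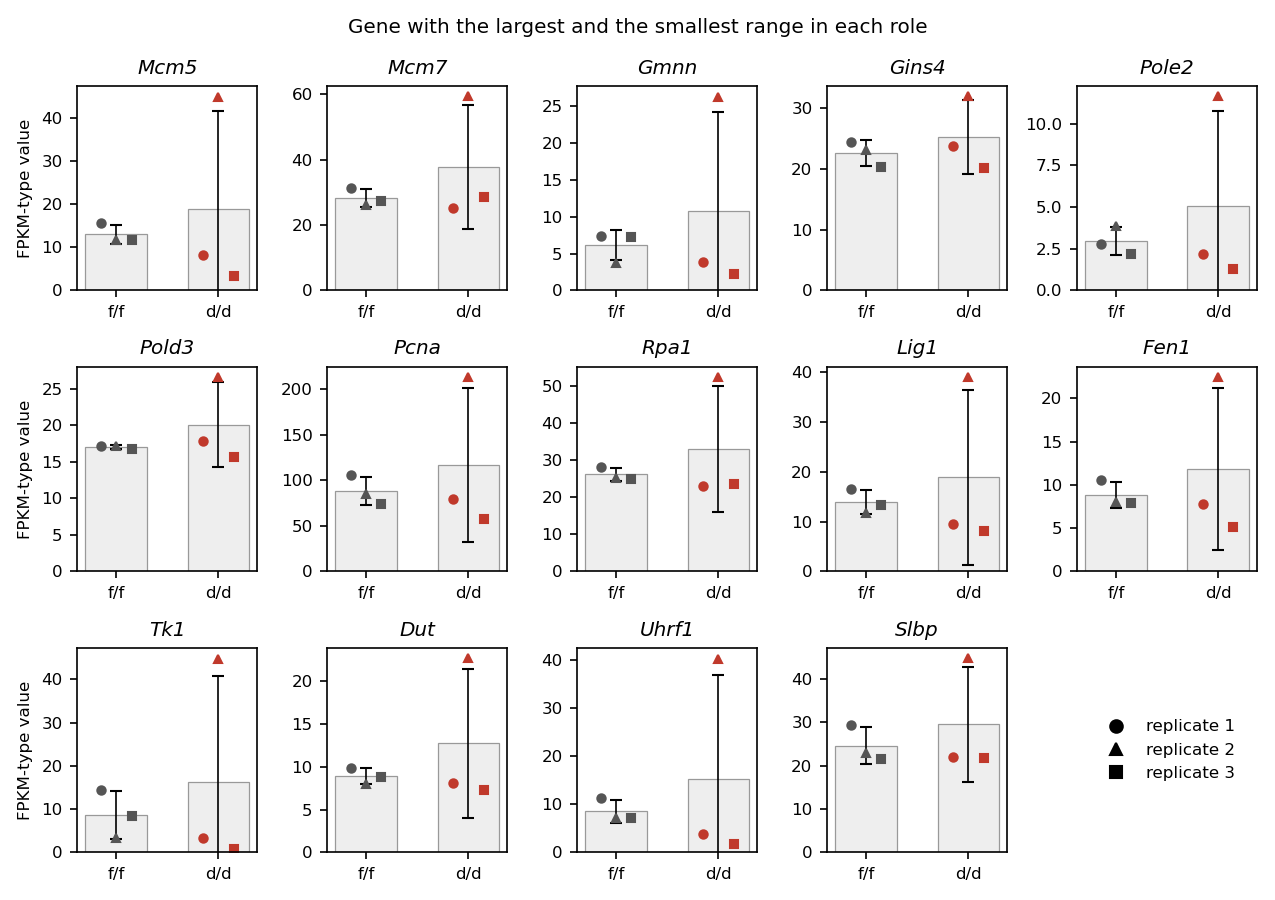
FPKM-type values by group for the gene with the largest and the gene with the smallest range in each role. Points are libraries, bars are means and whiskers are SD (n = 3, cut at 0). In all 14 panels d/d replicate 2 (triangle) is the highest point, from 11.6 for Pole2 to 213 for Pcna.

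Nucleotide supply included the gene with the widest range of the set. Tk1, the thymidine kinase of the salvage route, was 14.3, 3.34 and 8.32 in controls and 3.32, 44.6 and 0.84 in deleted uteri. Replicate 2 was thus 53.0 times as high as replicate 3 (log2 change -0.26, SE 1.09, limma adjusted p 0.989). Controls themselves differed by 4.3 times for Tk1, and replicate 1 was barely below the lowest of them. Rrm2, the S-phase subunit of ribonucleotide reductase, was 8.73, 2.86 and 5.08 in controls and 2.18, 23.8 and 1.39 in deleted uteri.

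Other enzymes of the route varied less. Rrm1, the large reductase subunit, was 20.9, 14.7 and 17.5 in controls and 12.1, 44.6 and 12.3 in deleted uteri. Tyms, which makes thymidylate, was 7.04, 4.61 and 5.03 in controls and 2.55, 17.3 and 3.23 in deleted uteri, where replicate 1 and not replicate 3 was lowest. Dut, which removes dUTP, was 9.87, 7.95 and 8.82 in controls and 8.11, 22.7 and 7.30 in deleted uteri, with replicate 1 inside the control range (log2 change 0.30, SE 0.37, limma adjusted p 0.953).

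Genes that copy DNA methylation and chromatin behind the fork showed the pattern in 5 of 6 cases. Uhrf1, which reads hemimethylated DNA, was 11.2, 7.18 and 7.14 in controls and 3.72, 40.1 and 1.83 in deleted uteri (log2 change -0.19, SE 0.88, limma adjusted p 0.99). Dnmt1, the maintenance methyltransferase that Uhrf1 recruits, was 21.2, 16.7 and 18.5 in controls and 10.7, 39.5 and 11.6 in deleted uteri. The value of Uhrf1 divided by that of Dnmt1 was 0.39 to 0.53 in controls and 0.35, 1.01 and 0.16 in deleted replicates 1, 2 and 3, so that this ratio too was highest in replicate 2 and lowest in replicate 3.

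Histone chaperones rebuild nucleosomes on the new strands. Chaf1a was 5.97, 4.52 and 4.01 in controls and 2.97, 15.1 and 2.62 in deleted uteri, and Chaf1b was 5.17, 3.25 and 3.37 against 3.24, 15.7 and 2.12. Asf1b was 4.62, 1.75 and 2.26 in controls and 1.29, 12.9 and 0.57 in deleted uteri. Slbp binds the stem-loop of replication-dependent histone mRNAs and had the narrowest range of this role, at 29.5, 23.0 and 21.5 in controls and 22.0, 44.9 and 21.8 in deleted uteri (log2 change 0.18, SE 0.28, limma adjusted p 0.967). Both low deleted libraries were inside the control range for Slbp.

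Controls were not identical either. Control replicate 1 had the highest control value for 41 of the 47 genes, and the median over tested members of log2(value + 1) minus its mean in controls was 0.23, -0.11 and -0.10 in control replicates 1, 2 and 3. In deleted replicates 1, 2 and 3 it was -0.37, 1.28 and -0.55. Relative depth was 1.24, 1.01 and 1.08 in these controls and 1, 1.26 and 1.04 in deleted replicates 1, 2 and 3. The deepest library of each group was also the highest, and the part of depth in the result was not tested. Over all genes tested the same medians lay between -0.01 and 0.03 in every library. Mki67, a marker of cycling cells, was 10.7, 2.47 and 7.57 in controls and 2.30, 24.0 and 1.28 in deleted uteri, with the same library highest and the same library lowest as for Tk1. Mitosis markers together reached 63.6, 15.8 and 41.1 in controls and 15.6, 159 and 7.85 in deleted uteri.

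**Figure D5:**
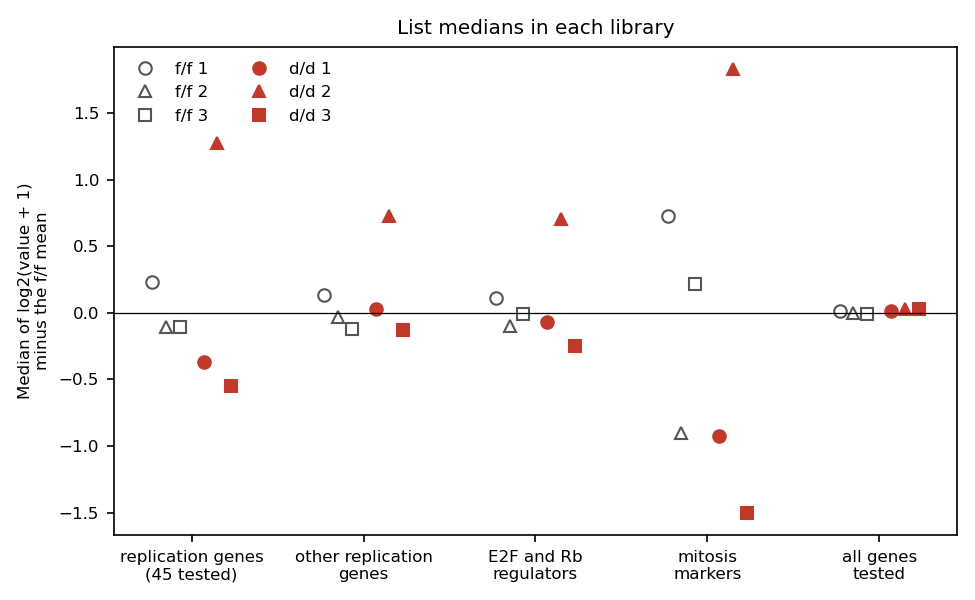
Median over the tested genes of each list of log2(value + 1) minus the mean of the Nat10 f/f libraries, by library. For the replication genes d/d replicate 2 is at 1.28 and replicates 1 and 3 at -0.37 and -0.55; for all genes tested every library lies near 0.

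A further 44 replication genes outside the set, such as kinases that trigger firing and fork protection factors, gave 41 tested genes, of which 0 were called by limma, and 0 had an unadjusted p under 0.05. Deleted replicate 2 was highest for 37 of these 41, against 30.1% of all genes tested, and the low, high and low pattern was found in 10, against 6.77%. Their median was 0.03, 0.73 and -0.13 in deleted replicates 1, 2 and 3. The 3 with the smallest p were Orc5 (log2 change 0.24, SE 0.12), Mtbp (0.34, SE 0.19) and Atad5 (0.44, SE 0.24), each with a limma adjusted p of 0.922. Mtbp, which takes part in origin firing, was 4.56, 5.35 and 5.10 in controls and 7.48, 8.09 and 4.72 in deleted uteri. Atad5, which unloads the clamp, was 3.27, 2.56 and 2.53 in controls and 3.51, 6.44 and 2.96 in deleted uteri. Orc5, an origin recognition subunit, was 14.7, 13.3 and 15.9 in controls and 19.7, 16.7 and 16.2 in deleted uteri, with no overlap between the groups. The groups did not overlap for 2 of these 41 genes, against 10.7% of all genes tested.

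Regulators of the E2F and Rb families gave 16 tested genes, and 0 were called by limma. At an unadjusted p under 0.05 there was 1 of 16, near the 4.98% of all genes tested: Cdkn1a, the p53 target that inhibits cyclin-dependent kinases. Cdkn1a was 3.68, 7.23 and 6.27 in controls and 33.9, 116 and 43.4 in deleted uteri, all above the controls (log2 change 3.11, SE 0.44, limma adjusted p 0.669). It was called without deleted replicate 2 (log2 change 2.59, limma adjusted p 0.0271). Deleted replicate 2 was thus highest both for Cdkn1a and for every replication gene of the set. E2f5 (log2 change 0.23) and Cdk2 (0.20) followed by p, with limma adjusted values of 0.922 and 0.947. E2f1, chosen after its values were seen, was 5.16, 3.80 and 3.85 in controls and 1.92, 14.01 and 1.87 in deleted uteri.

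Cell type markers were summed in each library beside this pattern. Stroma markers summed to 1905 to 2104 in controls and 1917, 1717 and 1968 in deleted replicates 1, 2 and 3, so that the sum was lowest in replicate 2. By the median over these markers of log2(value + 1) minus the control mean, replicate 1 was lowest, at -0.39, -0.27 and -0.01 in deleted replicates 1, 2 and 3. Of the 7 stroma markers, 4 were lowest and 3 highest in replicate 2. Epithelium markers summed to 597 to 696 in controls and 736, 677 and 768 in deleted uteri, and endothelium markers to 218 to 241 against 192, 204 and 208. Leukocyte markers summed to 22.6 to 39.3 in controls and 31.4, 23.5 and 33.9 in deleted uteri. Erythroid markers, which include globins, summed to 851 to 5581 in controls and 709, 1723 and 1111 in deleted uteri. Fat markers summed to at most 8.79 in any library, and ovary markers to 1.12 to 2.26 in controls and 1.42, 0.51 and 0.91 in deleted uteri. Oviduct and ciliated cell markers summed to 15.2 to 18.1 in controls and 17.8, 10.03 and 23.7 in deleted uteri, and skeletal muscle markers to 41.2 to 59.2 against 41.3, 49.7 and 43.3. The sum in replicate 2 lay outside the control range for stroma, endothelium, ovary, oviduct and fat markers, in each case below it. The part of cell makeup in the result was not tested.

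Exons of 16 of the 47 genes overlap those of another annotated gene, 14 of them on the opposite strand. Genes with such an overlap include Cdc45, Rfc2, Fen1, Lig1, Tk1 and Chaf1a, which showed the low, high and low pattern, and Mcm7 and Orc6, which did not. Pcna and Tyms have named pseudogenes. Values of genes with an overlap or a pseudogene are uncertain to the extent that reads were shared.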

How the data were processed

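Poly(A) RNA of whole uterus was compared in 6 libraries, prepared from TRIzol extracts with a TruSeq kit, per the labels' protocols. HISAT2 2.2.1, Cufflinks 2.2.1 and the build mm10 are named in the submitters' processing notes. The deposited values are taken as FPKM, computed by the authors; the unit was read from the values and the tools named, since no header states it, and annotation and strand use are not given in the sources used here. Total read counts are unknown, and relative depth was taken from the most frequent ratio of low values between libraries.

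Values were analysed as log2(value + 1), with the 12640 genes at 1 or more in at least 3 libraries, in limma 3.58.1 (R 4.3.3; trend; group as the only term; two-sided p; Benjamini-Hochberg over all genes; threshold 0.05). The fit was tested on simulated data in which both groups had the spread of the controls and no library stood apart, unlike these data. Design rows for counts were not used because the values are normalized. Python 3.11.15, pandas 2.3.3 and matplotlib 3.10.9 were used for sequences and figures. Gene coordinates and overlaps are from GENCODE M21 (GRCm38, the assembly that mm10 names), in which all 47 identifiers matched; promoter windows are from RefSeq.

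The members and the lists were chosen with earlier results of these data known. Any member could be named, and values in every library are given at least for the gene with the largest range, the smallest range and the smallest p in each role; outside the set the rule names Nat10, Mki67, Cdkn1a and the 3 genes with the smallest p of each of 2 lists. Alternatives were the pseudocount, filter, scaling, trend, a replicate block, leaving out each library, and array quality weights.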

Additional observations from a re-analysis of the deposited data

How the results depend on the processing

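With 3 libraries a group and unknown absolute depth, small changes and genes at low values (Orc1, Mcm10) could not be resolved. No member was called under any alternative. The count of genes called was 0 to 12 when 1 library was left out, 12 of them without deleted replicate 2, and 316 with array quality weights, under which Nat10 was called (-1.09, limma adjusted p 0.0386) and the smallest adjusted p of a member was 0.0908. Members not overlapping numbered 0 to 29, and their spread ratio was 0.91 to 10.07 (without deleted replicate 2 and without control replicate 1), when 1 library was left out. The non-overlapping members were 29 without deleted replicate 2 (31.8% of all genes), 2 without deleted replicate 3 (30.2%), 2 without control replicate 1 (17.0%) and 0 without any other library (15.03% to 20.5%). Pseudocount, filter, trend and scaling kept 0 genes called, and the members' median change at 0.08 to 0.14; leaving out 1 library gave -0.42 to 0.51. Of genes at an unadjusted p under 0.05, 339 were higher and 291 lower, against 259 and 414 with quantile normalization, 248 and 376 with median centring, and 232 and 399 with upper-quartile scaling. Same-numbered libraries shared only a number: their deviations correlated at -0.34, -0.03 and 0.10. With the replicate block, 0 genes were called, 726 had an unadjusted p under 0.05 and the members' median change was 0.12.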

Other observations

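Not every replication gene outside the set was highest in deleted replicate 2. Rrm2b, the p53-induced partner of the reductase, was 9.28, 7.67 and 7.90 in controls and 10.6, 6.44 and 12.2 in deleted replicates 1, 2 and 3, so that replicate 2 was lowest. These genes were chosen after their values were seen. The value of Rrm2 divided by that of Rrm2b was 0.37 to 0.94 in controls and 0.21, 3.69 and 0.11 in deleted uteri. Asf1a, the paralog of Asf1b that is less tied to proliferation, was 20.4, 17.0 and 16.2 in controls and 20.6, 17.8 and 22.0 in deleted uteri. Pclaf, a partner of Pcna, was 14.5, 3.28 and 4.75 in controls and 2.68, 41.1 and 0.81 in deleted uteri.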
